A study of Mus musculus with 9 samples.

Results

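The genes described here encode proteins of the chemical synapse: 41 genes of synaptic vesicles, of the machinery that fuses them with the membrane, and of the postsynaptic density that faces the release site. They were taken as a list of gene symbols with no threshold on their values, drawn up with earlier results of these data known, and every non-control probe whose RefSeq accession maps to one of them was collected. Of the 41 genes, 40 had a probe, with 70 probes in all among the 55681 non-control probes of the array. Syt5 matched no probe and is not described further. All 40 genes passed the filter on dim probes, and they are 40 of the 30836 genes tested.

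RNA came from homogenised brain of adult male C57BL/6 mice aged 50 to 53 days, with 3 arrays in each of 3 groups. Different mice were used for each of the 3 replicate experiments. Mice of the sham group had sham surgery, and no injection is stated for them. In the MCAO group the middle cerebral artery was closed for 90 min, a model of transient ischaemic stroke. Those mice received 1 µl of phosphate-buffered saline injected into the lateral ventricle of the right side, 3 h after blood flow returned. In the VEGF group the occlusion, route, volume and time were the same, and the fluid held human VEGF-A165, a recombinant protein, at 10 µg/ml. This growth factor acts on blood vessels and on neural cells. Every brain was collected 24 h after reperfusion. The labels do not say which part or which side of the brain was homogenised.

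At a synapse, an action potential opens calcium channels beside docked vesicles. Calcium binds synaptotagmin, the SNARE proteins (Stx1a, Snap25 and Vamp proteins) zip together with the help of complexin, and the vesicle releases its transmitter. Munc13 and RIM proteins prepare vesicles at the active zone. On the other side, scaffold proteins such as PSD-95 (Dlg4), the SAP90/PSD-95-associated proteins, Shank and Homer stack into the postsynaptic density, which anchors glutamate receptors and holds large amounts of calcium/calmodulin kinase II. Most of these genes are expressed mainly by neurons.

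The 250 bases before the annotated start are shown for 5 of the genes, so that the regions next to the genes that carry the comparisons can be read. The RefSeq table (GRCm38.p6) held 49 such promoter entries for 32 of the 41 genes. Shown are the 4 genes with an entry among the 5 whose level fell in both comparisons against sham once MCAO array 1 and VEGF array 1 were left out, and Syn1, the gene that had a near-complete RE1 element. Capitals mark the motifs searched, on both strands: RE1, the element bound by the repressor REST outside neurons (1 mismatch allowed), the cyclic AMP response element (TGACGTCA) and the GC box bound by Sp1 (GGGCGG, read as CCGCCC on the other strand). No match of 1 motif overlapped a match of another in these 5 stretches. They lie at chrX:7638330-7638579 (plus strand), chrX:20920919-20921168 (minus strand), chr8:71671758-71672007 (minus strand), chr15:89499358-89499607 (plus strand) and chr4:127172630-127172879 (plus strand), and each is written 5′ to 3′ on the strand of its gene. The entries of Shank3 and Dlgap3 belong to starts that lie inside the annotated gene.
Syp: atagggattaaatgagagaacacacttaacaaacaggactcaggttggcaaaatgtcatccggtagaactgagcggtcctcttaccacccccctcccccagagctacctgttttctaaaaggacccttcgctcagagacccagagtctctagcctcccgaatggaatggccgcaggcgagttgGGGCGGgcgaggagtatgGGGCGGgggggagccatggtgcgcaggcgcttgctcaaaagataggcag
Syn1: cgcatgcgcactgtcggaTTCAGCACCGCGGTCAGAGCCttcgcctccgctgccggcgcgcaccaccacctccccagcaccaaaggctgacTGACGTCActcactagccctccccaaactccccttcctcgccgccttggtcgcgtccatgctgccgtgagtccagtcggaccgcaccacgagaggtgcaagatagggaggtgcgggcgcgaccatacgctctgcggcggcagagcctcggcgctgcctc
Unc13a: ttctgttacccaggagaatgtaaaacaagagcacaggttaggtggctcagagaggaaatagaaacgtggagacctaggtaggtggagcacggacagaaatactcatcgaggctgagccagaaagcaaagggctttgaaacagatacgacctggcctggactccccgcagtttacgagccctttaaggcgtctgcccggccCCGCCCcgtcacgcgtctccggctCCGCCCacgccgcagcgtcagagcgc
Shank3: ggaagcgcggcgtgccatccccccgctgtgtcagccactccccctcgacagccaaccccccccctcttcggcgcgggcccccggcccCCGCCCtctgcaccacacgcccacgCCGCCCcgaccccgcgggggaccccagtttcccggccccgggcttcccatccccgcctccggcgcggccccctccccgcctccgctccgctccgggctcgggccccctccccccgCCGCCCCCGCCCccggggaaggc
Dlgap3: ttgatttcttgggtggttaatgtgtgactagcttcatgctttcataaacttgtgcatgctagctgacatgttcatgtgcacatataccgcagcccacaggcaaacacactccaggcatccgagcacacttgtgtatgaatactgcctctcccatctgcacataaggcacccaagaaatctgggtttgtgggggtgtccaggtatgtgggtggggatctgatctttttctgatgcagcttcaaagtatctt

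Syn1, which encodes the vesicle protein synapsin I, held the RE1 match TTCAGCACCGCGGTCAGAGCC with 1 mismatch, 232 to 212 bases before its start. Of 32851 promoter entries of all genes, 5 (0.0152%) held RE1 with at most 1 mismatch. The same stretch of Syn1 held the cyclic AMP response element, 159 to 152 bases before the start, which 1.55% of all entries hold. GC boxes occurred in 21 of the 49 entries (42.9%), against 32.7% of all entries. Syp and Unc13a each had 2 of them, and Shank3 had 4 in a stretch that is 82.4% G and C. None of these letter patterns was found in the Dlgap3 stretch, which is 46.8% G and C. A match is a string of letters and was not tied to a factor by these data.

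Levels are given as log2 of the array's processed intensity minus the 75th percentile of that array, so that 0 is the 75th percentile of all non-control spots. They can be compared between arrays for 1 probe but not between probes. Where a gene had several probes, the brightest stands for it. Groups were compared with limma in 1 fit of all 9 arrays. Values after ± are the standard error of that fit with n = 3 arrays per group, and p-values are adjusted by the Benjamini-Hochberg method over the 30836 genes. A gene that passed had an adjusted p under 0.05.

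MCAO array 1 and VEGF array 1 stood apart from the other 7 arrays. Their 75th percentiles of signal were 923 and 848 intensity units, against 1420 to 2070 on the others. They also differed from each other: relative to sham, 6 choroid plexus markers had medians of 2.00 on MCAO array 1 and -3.96 on VEGF array 1. On arrays 2 and 3 these medians were -1.04 and -0.24 in MCAO, and 1.24 and -4.51 in VEGF. The part of the tissue taken in these medians was not tested. Per the file headers, MCAO array 1 was scanned on another day and processed without the detrending step. All sham arrays lay on 1 slide, and all MCAO and VEGF arrays shared another. Both occluded groups were also injected, and no injection is stated for sham. Slide, occlusion and injection therefore cannot be told apart in the comparisons against sham. No spot was saturated, and 69 of the 70 probes cleared the background test on every one of the 9 arrays. The probe of Syt2 was not well above background on VEGF array 1. None of the 12 neuron, 8 astrocyte and 8 oligodendrocyte markers listed was below background on all sham arrays. Because of these 2 arrays, each comparison is given with all arrays and without this pair, which leaves 2 arrays in each occluded group. The pair was chosen because it stood apart in these same data, so leaving it out lowers the estimate of the spread. The median standard error over all genes against sham was 0.31 with all arrays and 0.18 without the pair. Adjusted p-values without the pair may therefore be too small, and a gene said to fall without the pair did so in that fit only.

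Synaptic genes were lower in MCAO brain than in sham brain almost throughout, but the size of the difference depended on the array. With all arrays, 36 of 40 genes had a fitted difference below 0 (55% of all genes did), with a median of -1.22 log2 units against -0.07 over all genes tested. The 3 MCAO values lay below all 3 sham values for 29 of the 40 genes (22% of all genes). Only 1 gene passed, Shank3, which fell. That is 2.5% of the 40, beside 0.584% of all genes that passed as lower and 2.74% that passed in either direction, so a count of 1 gene is not a result about the list. At an unadjusted p under 0.05 there were 12 genes (30%), against 21.5% of all genes. Without MCAO array 1 and VEGF array 1, 13 of 40 genes (32.5%) passed as lower and none as higher, beside 14.4% of all genes called lower and 23.6% called in either direction. The median difference was then -0.63. Those 13 genes were Syp, Syn2, Rab3a, Cplx2, Nsf, Rims2, Unc13a, Bsn, Nrxn3, Dlg4, Shank1, Shank3 and Dlgap3.

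VEGF brain was set against the same sham arrays, and the synaptic genes were mostly lower here too. Of 40 genes, 37 had a difference below 0 (60.2% of all genes), with a median of -1.05 against -0.16 over all genes. The groups did not overlap for 25 genes, all lower (26.4% of all genes). Again Shank3 alone passed, as lower (0.405% of all genes lower, 2.33% in either direction), and 7 genes had an unadjusted p under 0.05 (24.1% of all genes). Without the pair of arrays, 6 of 40 genes (15%) passed, all lower: Syp, Syt7, Unc13a, Shank1, Shank3 and Dlgap3. That share is close to the background of 13.1% lower and 21.1% in either direction. The median difference was then -0.44.

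The median over the 40 genes, relative to the sham mean of each gene, was -2.39 on MCAO array 1, -0.76 on array 2 and -0.48 on array 3. On the VEGF arrays it was -2.31, -0.71 and -0.27 in the same order, and 0.06, -0.10 and 0.04 in sham. The 12 neuron markers had medians of -2.09, -0.51 and -0.36 in MCAO and -2.34, -0.47 and -0.34 in VEGF. So the arrays with the lowest synaptic levels were those with the lowest neuron markers, and the part of neuron content in the differences was not tested. In homogenised tissue, fewer neurons and less RNA per neuron cannot be told apart. Leukocyte markers moved the other way: 5 of 6 measured passed as higher in both comparisons, and their log2 summed level was 0.90 to 1.45 on sham arrays, 3.86 to 6.82 on MCAO arrays and 4.10 to 6.49 on VEGF arrays.

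**Figure D1:**
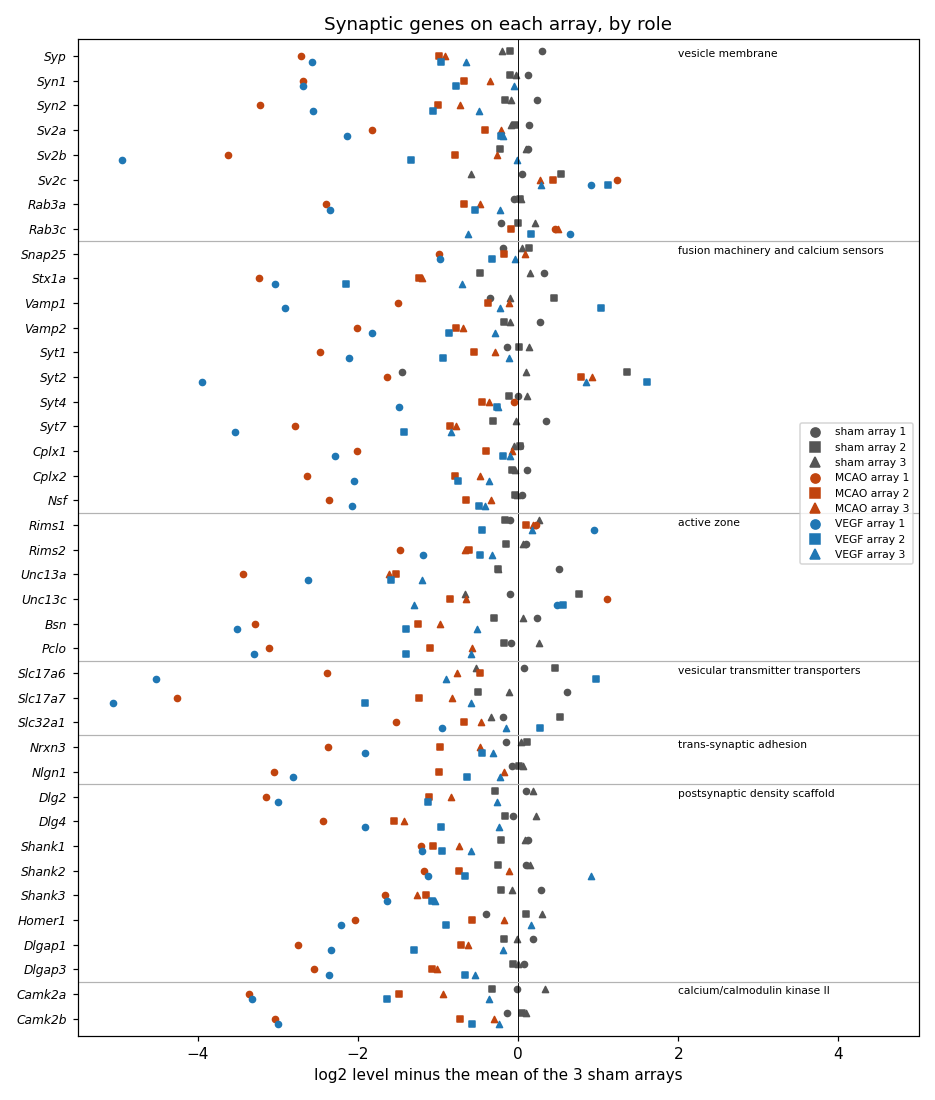
Log2 level of each of the 40 measured synaptic genes on each of the 9 arrays, minus the mean of its 3 sham arrays (x axis, log2 units), in rows by role; colour gives the group and the marker shape the array number. MCAO array 1 and VEGF array 1 (circles) lie furthest to the left for most genes, while the 6 points of occluded mice for Shank3 and Shank1 lie close together.

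Vesicle membrane proteins hold the vesicle's identity and tether it. None of the 8 genes passed in either comparison with all arrays; their median was -1.21 in MCAO and -1.11 in VEGF against sham. Syp encodes synaptophysin, the classic marker of synaptic vesicles. Its level was 6.72, 6.32 and 6.22 in sham, 3.71, 5.44 and 5.51 in MCAO and 3.85, 5.45 and 5.77 in VEGF. Every occluded array lay below every sham array, and array 1 was the lowest of each occluded group. The differences from sham were -1.53 ± 0.60 (adjusted p = 0.196) in MCAO and -1.40 ± 0.60 (adjusted p = 0.203) in VEGF. Without the pair Syp fell by 0.95 in MCAO (adjusted p = 0.0184) and by 0.81 in VEGF (adjusted p = 0.032).

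Syn2, synapsin II, which links vesicles into a reserve pool, read 6.64, 6.24 and 6.32 in sham, 3.17, 5.40 and 5.67 in MCAO and 3.85, 5.34 and 5.91 in VEGF. Neither occluded group overlapped sham. The MCAO difference was -1.65 ± 0.71 (adjusted p = 0.227), and without the pair it fell by 0.86 (adjusted p = 0.0362). Rab3a, a small GTPase on vesicles, was tight in sham at 6.96, 7.03 and 7.04, and read 4.61, 6.34 and 6.54 in MCAO and 4.66, 6.47 and 6.79 in VEGF. No value of an occluded mouse reached the sham range. The difference from sham was -1.18 ± 0.64 (adjusted p = 0.307) in MCAO with all arrays, and Rab3a fell by 0.57 without the pair (adjusted p = 0.0352).

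Sv2c, a member of the SV2 transporter-like family that is common in the basal ganglia, was the gene with the highest MCAO difference of the group. It read -3.97, -3.48 and -4.61 in sham, -2.78, -3.59 and -3.75 in MCAO and -3.11, -2.90 and -3.73 in VEGF. The groups overlapped, and the differences of 0.65 ± 0.38 in MCAO (adjusted p = 0.341) and 0.78 ± 0.38 in VEGF (adjusted p = 0.239) did not pass. Its relatives differed in sign: relative to sham, Sv2b was at -3.63, -0.79 and -0.27 in MCAO and at -4.95, -1.34 and -0.02 in VEGF. Sv2a was at -1.82, -0.41 and -0.21 and at -2.14, -0.22 and -0.19. Syn1, whose RE1 element is shown above, had an MCAO difference of -1.24 ± 0.75 (adjusted p = 0.356), and -0.51 ± 0.24 without the pair (adjusted p = 0.156).

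Of 17 genes with several probes, Rab3c, Cplx2 and Rims1 had probes of opposite sign in both comparisons against sham with all arrays. Without the pair these were the same 3 in MCAO, and Cplx2 and Slc32a1 in VEGF. In VEGF against MCAO, 10 of the 17 had probes of opposite sign. Of the 3 probes of Rab3c, the brightest gave 0.29 ± 0.34 in MCAO against sham (adjusted p = 0.628) and the second 0.16 ± 0.30. The third gave -1.94 ± 0.55, with levels of 4.92, 4.84 and 4.68 in sham and 1.76, 3.34 and 3.53 in MCAO. In an equal fit over probes, the third probe had an adjusted p of 0.111 with all arrays and 0.00435 without the pair.

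Fusion machinery and calcium sensors comprised 11 measured genes. With all arrays none passed, with medians of -1.11 in MCAO and -0.99 in VEGF. Stx1a, syntaxin 1A of the presynaptic membrane, had the lowest MCAO difference of these. It read 4.0, 3.20 and 3.82 in sham, 0.44, 2.44 and 2.47 in MCAO and 0.64, 1.53 and 2.97 in VEGF. The sham range was not reached in either group. Its differences were -1.89 ± 0.69 in MCAO (adjusted p = 0.175) and -1.96 ± 0.69 in VEGF (adjusted p = 0.153), and neither passed without the pair (adjusted p = 0.0881 and 0.063). Snap25, its partner in the same complex, differed little: relative to sham it was at -0.99, -0.18 and 0.09 in MCAO and at -0.97, -0.33 and -0.04 in VEGF, and its MCAO difference was -0.36 ± 0.34 (adjusted p = 0.541).

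Nsf, the ATPase that takes SNARE complexes apart, read 5.76, 5.67 and 5.69 in sham, 3.34, 5.05 and 5.37 in MCAO and 3.63, 5.22 and 5.30 in VEGF. All occluded arrays were below sham. Its MCAO difference was -1.12 ± 0.59 (adjusted p = 0.298), and without the pair it fell by 0.49 (adjusted p = 0.0456). Syt7, a slow calcium sensor, read 1.06, 0.41 and 0.69 in sham, -2.06, -0.12 and -0.06 in MCAO and -2.81, -0.71 and -0.12 in VEGF. The groups did not overlap with sham. It fell in VEGF without the pair, by 1.13 (adjusted p = 0.0268), while the MCAO difference of -0.81 ± 0.25 did not pass (adjusted p = 0.0595). These values are those of the brightest of its 2 probes. The second probe of Syt7 gave -0.36 in VEGF and -0.69 in MCAO without the pair. The VEGF minus MCAO difference for Syt7 was -0.46 ± 0.75 with all arrays and -0.32 ± 0.27 without the pair, and neither passed. For that difference the second probe had the opposite sign, at 0.23 with all arrays and 0.34 without the pair.

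Cplx2, complexin II, gave opposite directions by probe. Its brightest probe read 6.91, 6.72 and 6.76 in sham, 4.16, 6.01 and 6.33 in MCAO and 4.74, 6.05 and 6.43 in VEGF. These groups did not overlap with sham, and this probe gave -1.30 ± 0.60 in MCAO (adjusted p = 0.251). Without the pair it fell by 0.63 (adjusted p = 0.0452). The other 3 probes of Cplx2 gave 0.44 ± 0.33, 0.58 ± 0.38 and 0.77 ± 0.50 in MCAO against sham, and 0.75 ± 0.33, 0.90 ± 0.38 and 0.55 ± 0.50 in VEGF. With the mean of the 4 probes the MCAO difference was 0.12 (adjusted p = 0.828), so the call of Cplx2 rests on the choice of probe. All 4 probes carry the same accession, and where each lies in the transcript was not analysed here.

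**Figure D2:**
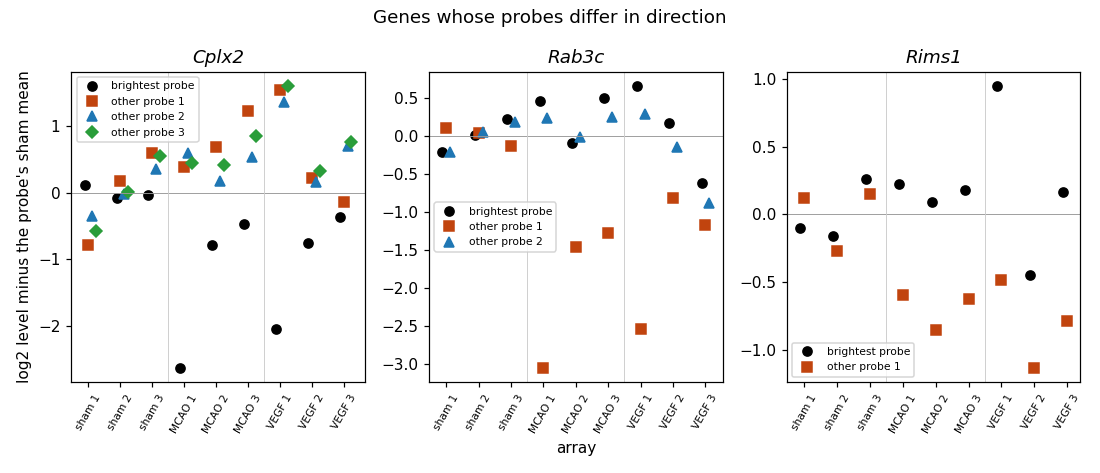
Log2 level of every probe of Cplx2, Rab3c and Rims1 on each array, minus that probe's sham mean (y axis, log2 units; arrays on the x axis); black circles are the brightest probe and other symbols the other probes. For Cplx2 the brightest probe lies below 0 on all 6 occluded arrays while the other 3 lie above 0 on 5 of them at least.

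Syt2, the fast calcium sensor of hindbrain and some inhibitory synapses, had the widest spread of the 40 genes on the sham arrays (SD 1.41) and on the VEGF arrays (SD 3.01). It read -5.85, -3.03 and -4.30 in sham, -6.03, -3.61 and -3.47 in MCAO and -8.33, -2.78 and -3.54 in VEGF, where the value on VEGF array 1 is not well above background. The groups overlapped widely, and the MCAO difference was 0.02 ± 1.44 (adjusted p = 0.994). On the sham arrays Syt2 stood at -1.45, 1.36 and 0.09 relative to their mean. Oligodendrocyte markers had medians of -0.84, 0.93 and -0.07 there, and thalamus markers of -0.59, 0.48 and 0.03, the same order as Syt2 over these 3 arrays. Neuron, astrocyte, microglia and cerebellum markers had that order too, within a narrower range. Endothelial, leukocyte, choroid plexus, cortex and hippocampus, and striatum markers did not. The order did not hold in occluded brain: on MCAO array 1 the oligodendrocyte median was 2.04 and the thalamus median 0.50 while Syt2 stood at -1.64, and on VEGF array 1 they were 0.10 and 0.88 while Syt2 stood at -3.94. Vamp1, a vesicle SNARE of the brainstem and spinal cord, and Slc17a6 were also highest on VEGF array 2, at 1.03 and 0.97 above sham. The thalamus markers had a median of 0.93 on that array, and of 0.88 on VEGF array 1, where Vamp1 and Slc17a6 were at their lowest, -2.91 and -4.52. The part of the tissue taken in these values was not tested.

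At the active zone, where vesicles dock, the 6 genes had medians of -1.26 in MCAO and -1.21 in VEGF against sham. Unc13a, Munc13-1, which readies vesicles for fusion, had the lowest MCAO difference of all 40 genes. Its level was -0.65, -1.42 and -1.41 in sham, -4.59, -2.69 and -2.78 in MCAO and -3.78, -2.75 and -2.36 in VEGF. Every occluded array lay below the sham range, by 1.27 log2 units in MCAO and 0.95 in VEGF for the nearest array. The differences were -2.19 ± 0.57 in MCAO (4.57-fold lower, adjusted p = 0.0824) and -1.80 ± 0.57 in VEGF (adjusted p = 0.125). Without the pair Unc13a fell by 1.57 in MCAO (adjusted p = 0.0111) and by 1.40 in VEGF (adjusted p = 0.0185). Its relative Unc13c, at -0.13 ± 0.68 in MCAO, had overlapping groups.

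Bsn, bassoon, a giant scaffold of the active zone, read 4.73, 4.20 and 4.55 in sham, 1.21, 3.24 and 3.52 in MCAO and 0.99, 3.09 and 3.99 in VEGF. Both occluded groups lay below sham throughout. Its MCAO difference was -1.84 ± 0.81 (adjusted p = 0.234), and without the pair it fell by 1.11 (adjusted p = 0.0398). Pclo, piccolo, its structural relative, had -1.60 ± 0.78 with all arrays and -0.84 ± 0.29 without the pair (adjusted p = 0.0814), and did not pass.

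Rims2, a RIM scaffold, read 0.16, -0.08 and 0.13 in sham, -1.40, -0.54 and -0.60 in MCAO and -1.11, -0.41 and -0.26 in VEGF. No occluded value overlapped sham. The MCAO difference was -0.92 ± 0.31 (adjusted p = 0.148), and it fell by 0.64 without the pair (adjusted p = 0.0195). Rims1 had the highest MCAO difference of the active zone genes. Its brightest probe read -0.92, -0.98 and -0.56 in sham, -0.60, -0.73 and -0.64 in MCAO and 0.13, -1.27 and -0.65 in VEGF. These groups overlapped, with an MCAO difference of 0.16 ± 0.33 (adjusted p = 0.787). The second probe of Rims1 gave -0.69 ± 0.23 in MCAO and -0.80 ± 0.23 in VEGF, and in the fit over probes without the pair its adjusted p was 0.041 and 0.0228.

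Vesicular transporters load transmitter into vesicles and mark the type of neuron. Slc17a7 encodes VGLUT1, the glutamate transporter of most cortical and hippocampal synapses. It read 2.84, 1.73 and 2.12 in sham, -2.03, 0.99 and 1.40 in MCAO and -2.82, 0.32 and 1.64 in VEGF. The groups did not overlap with sham, and array 1 of each occluded group lay more than 3 log2 units below the next. The differences were -2.11 ± 1.20 in MCAO (adjusted p = 0.328) and -2.52 ± 1.20 in VEGF (adjusted p = 0.232). Markers of cortex and hippocampus, 8 in number, had medians of -2.42, -0.38 and -0.21 in MCAO and -2.76, -1.52 and 0.17 in VEGF, and their part in this was not tested.

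Slc32a1, the transporter for GABA and glycine, had the highest MCAO difference of these 3 genes by its brightest probe. Its level was 5.16, 5.87 and 5.01 in sham, 3.82, 4.67 and 4.88 in MCAO and 4.40, 5.62 and 5.20 in VEGF. MCAO lay below sham without overlap, whereas VEGF overlapped it. The differences were -0.89 ± 0.41 in MCAO (adjusted p = 0.249) and -0.27 ± 0.41 in VEGF (adjusted p = 0.683). The second of the 2 probes of Slc32a1 gave -1.38 in MCAO and -0.68 in VEGF. Without the pair the brightest probe gave -0.57 in MCAO and 0.07 in VEGF, and the second -1.21 and -0.51. Slc17a6, VGLUT2 of thalamus and brainstem, was at -2.38, -0.48 and -0.77 relative to sham in MCAO and at -4.52, 0.97 and -0.90 in VEGF.

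Nrxn3 and Nlgn1 encode neurexin 3 and neuroligin 1, which bind each other's families across the cleft. Nrxn3 read 3.59, 3.85 and 3.78 in sham, 1.36, 2.77 and 3.26 in MCAO and 1.83, 3.29 and 3.43 in VEGF. The sham range was not reached by any occluded array. The MCAO difference was -1.28 ± 0.55 (adjusted p = 0.227), and Nrxn3 fell by 0.73 without the pair (adjusted p = 0.0344). Nlgn1 read 1.29, 1.38 and 1.42 in sham, -1.68, 0.37 and 1.18 in MCAO and -1.45, 0.73 and 1.13 in VEGF. Here array 3 of both groups lay just below sham. The MCAO difference was -1.41 ± 0.82 (adjusted p = 0.337), and it did not pass without the pair (adjusted p = 0.141).

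Scaffold genes of the postsynaptic density held the 3 smallest unadjusted p-values of the 40 genes in MCAO against sham, those of Shank3, Shank1 and Dlg4. Of 8 genes, 1 passed as lower in each comparison with all arrays, beside 0.584% of all genes in MCAO and 0.405% in VEGF. Without the pair 4 passed as lower in MCAO and 3 in VEGF, beside 14.4% and 13.1% of all genes. Their medians were -1.36 in MCAO and -1.11 in VEGF against sham. Shank3 encodes a large scaffold that joins PSD-95-associated proteins to Homer and actin. Its level was 3.01, 2.51 and 2.65 in sham, 1.06, 1.58 and 1.46 in MCAO and 1.09, 1.65 and 1.68 in VEGF. The 6 occluded arrays lay between 1.06 and 1.68, all below the lowest sham value of 2.51, and array 1 was only slightly below the others. Shank3 fell by 1.36 ± 0.25 in MCAO (2.56-fold lower, adjusted p = 0.0278) and by 1.25 ± 0.25 in VEGF (2.38-fold lower, adjusted p = 0.0417). Without the pair it fell by 1.21 (adjusted p = 0.00683) and 1.06 (adjusted p = 0.0119).

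The second probe of Shank3 read -3.12, -3.60 and -3.36 in sham, -4.35, -4.48 and -4.31 in MCAO and -4.25, -3.06 and -4.04 in VEGF. It lay below sham on all MCAO arrays but not on VEGF array 2. With the mean of both probes the VEGF difference was -0.84 (adjusted p = 0.118). The call with all arrays also depended on single arrays. In MCAO the adjusted p was 0.135, 0.0831 and 0.110 without sham array 1, 2 or 3, and 0.0582 and 0.0805 without MCAO array 2 or 3. In VEGF it was 0.186, 0.113 and 0.157 without sham array 1, 2 or 3, 0.0684 and 0.0756 without MCAO array 2 or 3, and 0.0841, 0.0649 and 0.0628 without VEGF array 1, 2 or 3. Over the 22 alternatives run, the difference lay between -1.46 and -1.10 in MCAO and between -1.36 and -0.84 in VEGF.

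Shank1, a close relative, read -0.07, -0.41 and -0.12 in sham, -1.42, -1.26 and -0.94 in MCAO and -1.40, -1.15 and -0.78 in VEGF. All occluded arrays were below sham and spanned 0.63 log2 units. The differences were -1.01 ± 0.23 in MCAO (adjusted p = 0.059) and -0.91 ± 0.23 in VEGF (adjusted p = 0.0828). Without the pair Shank1 fell by 0.90 (adjusted p = 0.0201) and 0.77 (adjusted p = 0.0351). Its other 2 probes gave -1.24 and -0.54 in MCAO.

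Shank2 had the highest MCAO difference of the scaffold genes. It read -3.42, -3.76 and -3.36 in sham, -4.69, -4.25 and -3.63 in MCAO and -4.64, -4.18 and -2.60 in VEGF. Both groups overlapped sham, and VEGF array 3 was the highest of all 9. The differences were -0.68 ± 0.50 (adjusted p = 0.444) and -0.29 ± 0.50 (adjusted p = 0.721).

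Dlg4, which encodes PSD-95, the central scaffold of glutamate synapses, had the lowest MCAO difference of the group. It read 3.13, 3.02 and 3.41 in sham, 0.75, 1.64 and 1.76 in MCAO and 1.27, 2.22 and 2.95 in VEGF. The nearest MCAO array lay 1.26 log2 units below the lowest sham array, and the nearest VEGF array 0.07 below it. The MCAO difference was -1.80 ± 0.43 (3.49-fold lower, adjusted p = 0.07), and without the pair Dlg4 fell by 1.48 (adjusted p = 0.00967). In VEGF it was -1.04 ± 0.43 (adjusted p = 0.194), and -0.60 ± 0.24 without the pair (adjusted p = 0.121).

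Dlgap3, SAPAP3, a PSD-95-associated protein that is prominent in striatum, read 5.94, 5.80 and 5.86 in sham, 3.31, 4.79 and 4.85 in MCAO and 3.50, 5.20 and 5.33 in VEGF. No occluded array overlapped sham. With all arrays the differences were -1.55 ± 0.55 (adjusted p = 0.167) and -1.19 ± 0.55 (adjusted p = 0.223). Without the pair Dlgap3 fell by 1.05 in MCAO (adjusted p = 0.00346) and by 0.60 in VEGF (adjusted p = 0.0199). Beside it, the 8 striatum markers had medians of -2.29, -1.53 and -1.40 in MCAO, -2.28, -1.22 and -1.28 in VEGF, and -0.41, 1.14 and -0.78 in sham. Their part in the Dlgap3 values was not tested.

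Of the other scaffold genes, Dlg2 (PSD-93), Dlgap1 and Homer1 had MCAO differences of -1.70, -1.36 and -0.93, and none passed in either comparison, with or without the pair. The kinase genes Camk2a and Camk2b encode the main subunits of the kinase that drives synaptic strengthening. Camk2a read 3.67, 3.37 and 4.02 in sham, 0.33, 2.20 and 2.75 in MCAO and 0.36, 2.05 and 3.32 in VEGF. Both groups lay below sham, VEGF array 3 only just. The differences were -1.93 ± 0.80 in MCAO (adjusted p = 0.213) and -1.78 ± 0.80 in VEGF (adjusted p = 0.214). Camk2b read 5.96, 6.14 and 6.19 in sham, 3.06, 5.37 and 5.80 in MCAO and 3.10, 5.52 and 5.86 in VEGF. Its groups did not overlap with sham either, and its MCAO difference was -1.36 ± 0.85 (adjusted p = 0.367). Neither kinase gene passed without the pair.

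**Figure D3:**
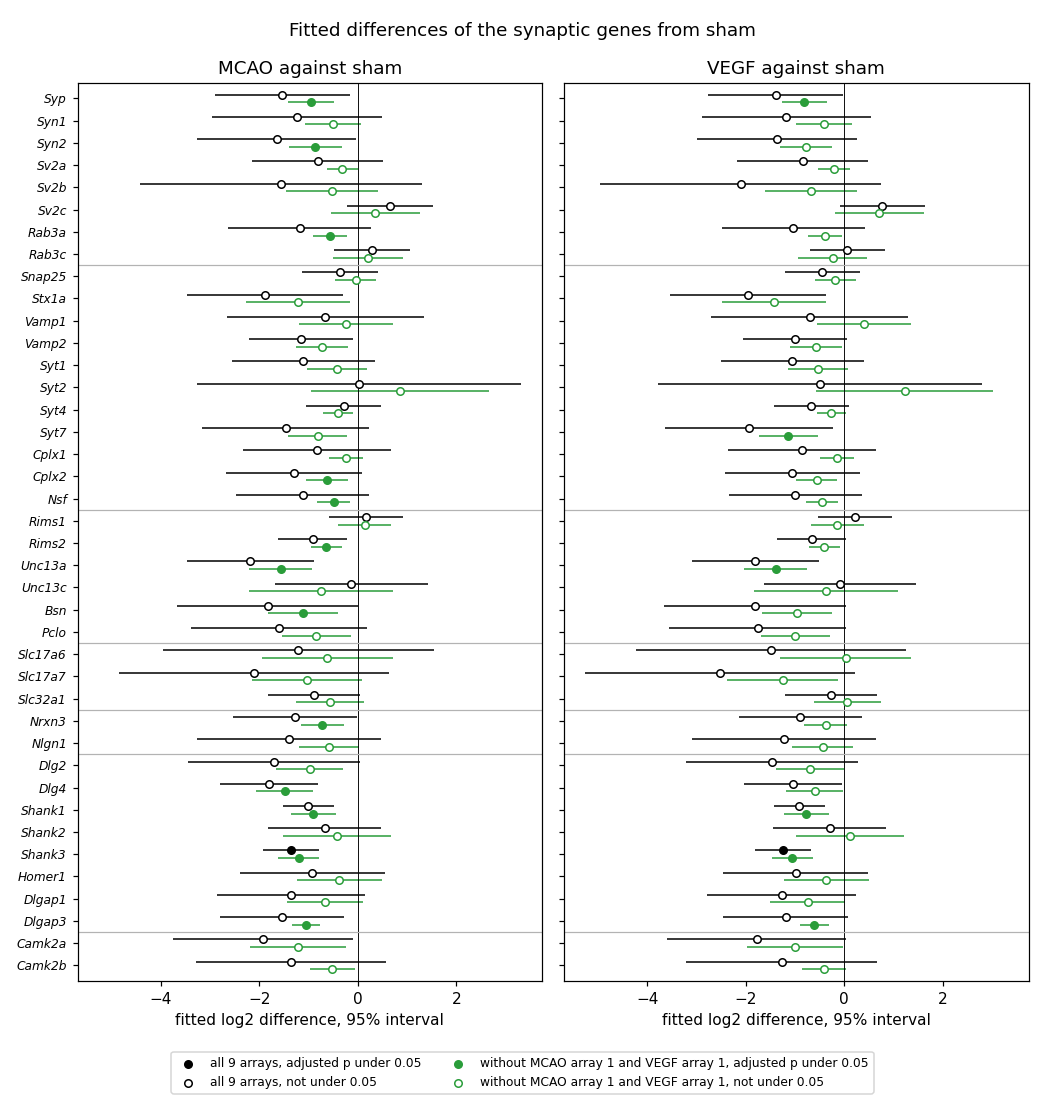
Fitted log2 difference of each synaptic gene from sham with its 95% interval (x axis), for MCAO (left) and VEGF (right); black is the fit of all 9 arrays, green the fit without MCAO array 1 and VEGF array 1, and filled circles have an adjusted p under 0.05. Only Shank3 is filled in black, and the green intervals are narrower, with 13 genes filled in MCAO and 6 in VEGF.

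VEGF and MCAO brain did not differ detectably in these genes. None of the 40 passed (2 of all genes did, 0.00649%), and none had an unadjusted p under 0.05 (2.9% of all genes). The median difference, VEGF minus MCAO, was 0.09 log2 units, with 26 genes above 0 and 14 below (55.8% of all genes below). Without the pair none passed (0.00973% of all genes), 2 genes had an unadjusted p under 0.05 (7.49% of all genes) and the median was 0.14. The sign of 38 of the 40 genes changed under at least 1 of 22 alternatives, and the exceptions were Dlg4 and Slc32a1. These alternatives include fits that leave out 1 array from 1 group. The median over the 40 genes was -0.48 without MCAO array 1 and 0.73 without VEGF array 1. It was below 0 only in fits that left out a single MCAO or VEGF array. An interval that includes 0 does not show equal levels: for Shank3 the 95% interval was -0.46 to 0.68, for Unc13a -0.90 to 1.68 and for Slc17a7 -3.15 to 2.34.

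Arrays of the same number in the 2 occluded groups deviated together, though VEGF array 2 did so as much with MCAO array 3 (correlation of deviations over genes 0.23) as with MCAO array 2 (0.22). VEGF array 3 with MCAO array 2 reached 0.39. The same-numbered arrays were also subtracted, although these data do not establish that the numbers pair them. VEGF was higher than MCAO in all 3 of these pairs for 12 of 40 genes (30%), beside 12.4% of all genes, and lower in all 3 for 2 genes (5%), Syt7 and Pclo, beside 14.6% of all genes. The 12 were Syp, Rab3a, Cplx2, Rims2, Slc32a1, Nrxn3, Dlg4, Shank1, Shank2, Shank3, Dlgap3 and Camk2b. Where a gene had several probes, these values are those of the brightest. Among the 12, Cplx2, Nrxn3 and Shank1 had probes of opposite sign in the fitted difference with all arrays, as did Syt7 and Pclo. Most differences of the 12 genes were small: Shank3 gave 0.02, 0.08 and 0.22, and Syp 0.13, 0.02 and 0.26. Dlg4 gave the highest mean, with 0.53, 0.58 and 1.19. Its fitted difference was 0.77 ± 0.43 (95% interval -0.23 to 1.76), and without the pair 0.88 ± 0.26 with an unadjusted p of 0.0135 and an adjusted p of 0.563. Dlgap3 gave 0.19, 0.41 and 0.48, with an unadjusted p of 0.0131 and an adjusted p of 0.563 without the pair. Slc32a1 gave 0.58, 0.95 and 0.31, with a fitted difference of 0.62 ± 0.41 that did not pass.

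**Figure D4:**
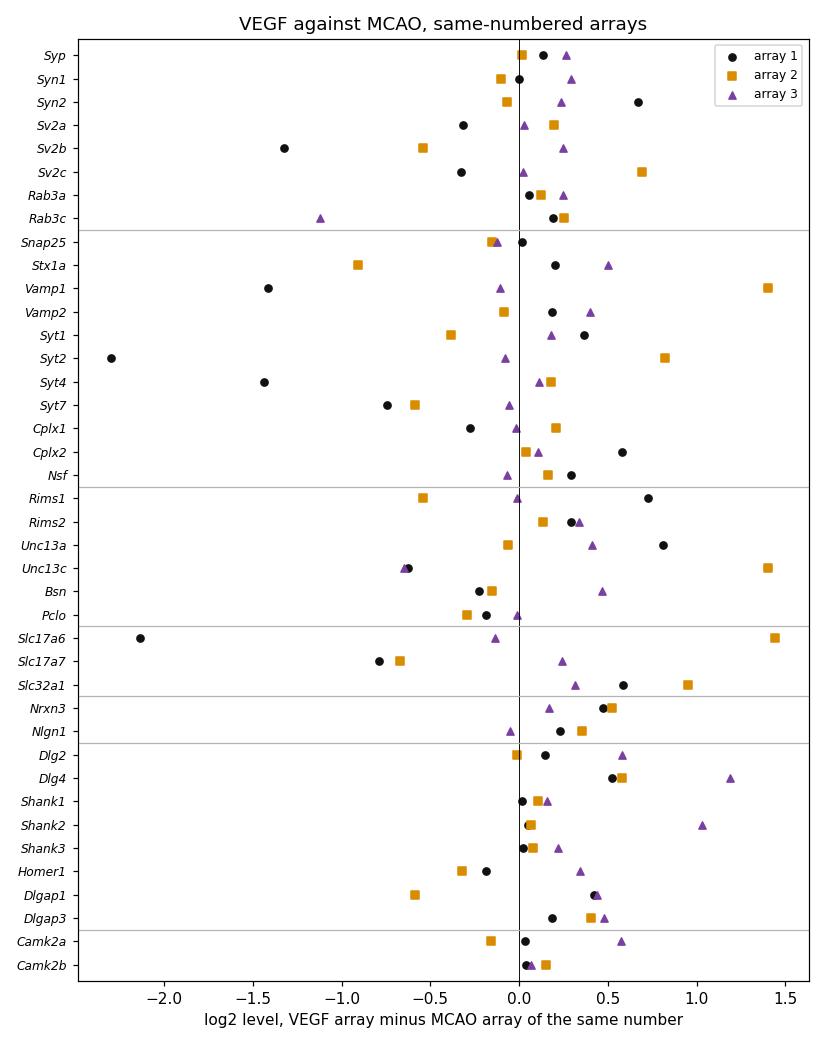
Log2 level on the VEGF array minus that on the MCAO array of the same number, for each synaptic gene (x axis, log2 units; genes in rows by role); the symbol gives the array number. Points lie on both sides of 0 for most genes, and all 3 lie to the right for 12 genes, furthest for Dlg4 and Slc32a1.

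Other genes of the synapse, 73 in a list that none of the 41 is in, were also mostly lower. Of 72 measured, 65 (90.3%) had an MCAO difference below 0 and 67 (93.1%) a VEGF difference below 0, beside 55% and 60.2% of all genes. In MCAO against sham 3 of 72 (4.17%) passed, all lower, beside 0.584% of all genes: Synpr (synaptoporin) at -1.89 ± 0.33, Camk2d (the delta subunit of the kinase) at -1.46 ± 0.27 and Rph3a (rabphilin 3A) at -1.16 ± 0.24. Their adjusted p-values were 0.0234, 0.028 and 0.0431. In VEGF against sham none of 72 passed in the limma fit, with 16 (22.2%) at an unadjusted p under 0.05, beside 24.1% of all genes. The medians of the 72 were -1.09 in MCAO and -1.11 in VEGF. Without the pair 26 (36.1%) passed as lower and 2 (2.78%) as higher in MCAO, beside 14.4% and 9.29% of all genes. In VEGF 19 (26.4%) passed as lower and 1 (1.39%) as higher, beside 13.1% and 8% of all genes. Those with the smallest p were Synpr, Erc2, Lrrtm1, Begain and Camk2d in MCAO, at -1.51, -1.11, -0.91, -1.04 and -1.42, and Synpr, Homer2, Nlgn3, Erc2 and Syt17 in VEGF, at -1.30, -1.31, -0.71, -0.93 and -1.63. The genes that rose were Dnajc5, a vesicle chaperone, by 0.62 in MCAO (adjusted p = 0.0196), and Syt6, by 1.11 in MCAO (adjusted p = 0.0282) and 0.98 in VEGF (adjusted p = 0.0437).

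**Figure D5:**
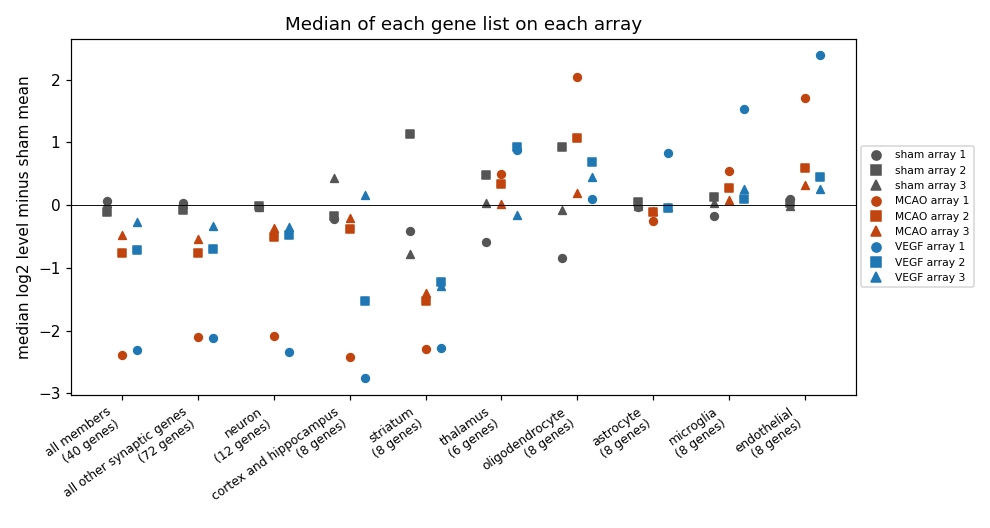
Median over the genes of each list of the log2 level minus the sham mean (y axis, log2 units), 1 point per array; colour gives the group and the marker shape the array number. The 40 synaptic genes, the 72 other synaptic genes and the 12 neuron markers are lowest on MCAO array 1 and VEGF array 1, between -2.39 and -2.09, while the endothelial markers are highest there, at 1.72 and 2.39.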

How the data were processed

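Total RNA of 9 mouse brains was hybridised to 1-colour Agilent arrays, 200 ng labelled with Cy3 each, per the labels. Per the file headers and the submitters' processing notes, Feature Extraction 10.7.1.1 made the processed intensity of each of 62976 spots: background was subtracted, the deposited spatial trend, a ratio around 1, was divided out (not on MCAO array 1), and values near background were replaced by surrogates. These deposited intensities are not scaled between arrays. The authors also deposited a table of log2 values, used as an alternative; its centring method is not stated.

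Here each array's 75th percentile of log2 intensity, taken without control spots, was set to 0, and spots of a probe were averaged without outlier spots. A probe was kept where all 3 arrays of 1 group or more passed the background test (43920 of 55681). Symbols came from RefSeq accessions (GRCm38.p6), and the brightest probe stood for a gene. The groups were compared in limma 3.58.1 (R 4.3.3, statmod 1.5.0), two-sided, in 1 fit of 9 arrays without covariates. On data simulated from the same arrays it recovered 60% of 4-fold changes in MCAO against sham, 62% in VEGF against sham and 66% in VEGF against MCAO, over 30836 genes. Over all genes the median standard error was 0.31, whereas those of the synaptic genes ran from 0.23 for Shank1 to 1.44 for Syt2, and most were above 0.31. Recovery was not computed for the synaptic genes alone. The number of arrays limits the precision.

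The members, the lists of other synaptic genes and markers, and the alternatives tried (scaling, background, filter, probe rule, covariates, arrays left out) were chosen with earlier results of these data known. Named in full are genes that passed in either fit, and in each role group the highest and lowest MCAO difference; of the other synaptic genes, at most 5 per direction by smallest p. For VEGF and MCAO, deviations of same-numbered arrays from their group means correlated at 0.59, 0.22 and 0.56. Each was above 0.1, the rule used here for subtracting same-numbered arrays. Differently numbered arrays also passed that rule: VEGF array 2 with MCAO array 3 at 0.23 and VEGF array 3 with MCAO array 2 at 0.39. These correlations therefore do not establish that the numbers pair the arrays. No list was tested as a set.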

Additional observations from a re-analysis of the deposited data

How the results depend on the processing

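The median over the 40 genes kept its direction in MCAO and VEGF against sham under all 22 alternatives, between -1.53 and -0.63 and between -1.44 and -0.44 with arrays left out. In VEGF against MCAO that median ranged from -0.48 to 0.73 with 1 array left out and so changed sign. It was above 0 in every alternative that did not leave out a single MCAO or VEGF array. The count of genes that passed there was 0 throughout. In MCAO against sham 35 of 40 genes kept their sign, and in VEGF against sham 31. In MCAO against sham 1 of the 40 genes passed with all arrays, beside 2.74% of all genes. With the detrending step applied to every array the count was again 1 (2.75% of all genes), and the median was -1.24. The count was 2 with normexp background (1.84% of all genes), 3 with the replicate block (3.85%) and 4 with age as a covariate (5%). It was 3 with only the compared groups (5.83%), 21 with array weights and 13 without MCAO array 1 and VEGF array 1 (23.6%). Leaving out 1 array gave 0 to 4, the 4 without VEGF array 1, beside 8.46% of all genes. In VEGF against sham 1 of the 40 genes passed with all arrays, beside 2.33% of all genes. The count was 0 with median scaling (4.7% of all genes), normexp background (1.37%) and no filter on dim probes (1.55%). It was also 0 with the mean of a gene's probes (2.35%) and with the replicate block (3.02%). It rose to 10 with array weights and to 6 without the pair (21.1%). Leaving out 1 array gave 0 to 3, the 3 without MCAO array 1, beside 11.8% of all genes. Array weights gave MCAO array 1 and VEGF array 1 0.114 and 0.144, with 41.2% and 24% of all genes then passing. With the replicate block, Dlg4 and Shank1 joined Shank3 in MCAO (adjusted p = 0.0305 and 0.0475), and Shank3 had an adjusted p of 0.0603 in VEGF. Deviations of same-numbered sham and MCAO arrays correlated at 0.03, -0.11 and 0.15, and those of sham and VEGF arrays at -0.03, 0.14 and 0.11. These values neither establish nor exclude a pairing by number. In VEGF against MCAO the block changed no call. Median scaling moved the median of all genes by 0.11 in VEGF against sham and 0.16 in VEGF against MCAO, and normexp by 0.14 in VEGF against sham. The cause of these shifts was not tested. Dim probes, such as that of Syt2, limit what can be read at low levels.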
